A study of Mus musculus with 56 samples.

Results

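The genes described here are 47 ATP-binding cassette (ABC) transporters, out of 20018 genes that could be named on the array. They were taken from the genes of the mouse reference table whose symbol is Abc followed by a letter from a to g and a number. Of 48 genes taken, Abca16 had no probe. The 47 genes had 62 probes, and where a gene had more than 1, the probe with the brightest sample signal in a tissue was used. The rule for the members uses no measured value.

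ABC transporters are membrane proteins that spend ATP to carry lipids, bile salts, drug conjugates, peptides or metal complexes across a membrane. In the liver, members of the B, C and G families sit in the canalicular membrane of hepatocytes and build the bile, while related exporters in endothelium and epithelium keep foreign compounds out of tissues. Members of the A family mostly move cholesterol and phospholipid, D members load peroxisomes or lysosomes, and E and F members have no membrane part and act in translation.

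The samples were lung, liver and forestomach RNA of adult male MutaMouse animals, a transgenic mouse strain made for scoring mutations, aged about 14 weeks. The vehicle group (D0) received olive oil by gavage for 28 days, and the dosed groups received chrysene, a polycyclic aromatic hydrocarbon, dissolved in it: 17.5 mg per kg of body weight and day in D1, 50 in D2 and 150 in D3, with tissue taken 72 hours after the last dose. D0, D1 and D3 had 5 mice in each tissue and D2 had 4, or 3 in lung, with 1 array for each mouse and tissue, 56 in all, and the same mice gave all tissues. Each array carried the sample in Cy5 and a reference RNA from 11 mouse cell lines in Cy3, without dye swaps, so a level below is a log2 ratio of Cy5 over Cy3: it is 0 where tissue and reference were equally bright, and it compares 1 probe across samples, never 1 gene with another.

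Lung arrays were the brightest, with 49.0% to 56.7% of spots well above background in Cy5, against 34.5% to 46.4% in liver and 18.9% to 51.7% in forestomach, where slide 1 (40.4% to 51.7%) was brighter than slides 2 and 3 (18.9% to 34.9%). Markers matched the tissue labels: the mean log2 ratio of 8 alveolar type 2 genes was 5.92 to 6.42 in lung, that of 10 hepatocyte genes 6.69 to 7.19 in liver, and that of 10 keratinocyte genes 4.48 to 6.95 in forestomach. RNA came from random sections of the tissue, and other cells came with it. In lung, skeletal muscle genes stood at 5.44 and 5.62 in mice 17 and 19 of D3 and at -1.13 to -0.40 in all other mice, and in forestomach 9 glandular stomach genes ran from 0.30 to 6.70. On 50 of the 56 arrays the column on the slide equalled the dose step plus 1, and in lung the effects of column and dose cannot be told apart.

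Of the 47 members, 37 in lung, 38 in liver and 34 in forestomach had a sample signal well above background on at least 3 arrays and were tested for dose. All arrays measured 31 of them in lung, 32 in liver and 12 in forestomach. Abca14, Abca15, Abcb5 and Abcc12 passed in no tissue and are not described further, and 32 passed in all 3 tissues.

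The promoters shown next belong to some members that were high in liver or forestomach and dim elsewhere, and to neighbouring genes whose highest tissue differed. Each is the stretch before a transcript start in RefSeq on GRCm38.p6, 5′ to 3′ on the strand of the gene, at most 250 bases long. Abcg5 and Abcg8, the sterol exporters, stand head to head on chromosome 17, and the 109 bases between their starts (chr17:84683012-84683120, plus strand) separate Abcg5 from 1 of the Abcg8 starts, while another Abcg8 start lies within Abcg5. The bile salt export pump Abcb11 (chr2:69342617-69342866, minus strand) and the conjugate exporter Abcc2 (chr19:43782058-43782307, plus strand) were high in liver. Abca12, the lipid carrier of keratinocytes (chr1:71414911-71415160, minus strand), was high in forestomach. Abcb1a (chr5:8566841-8567090), Abcb1b (chr5:8797897-8798146) and Abcb4 (chr5:8893471-8893720) follow each other on the plus strand of chromosome 5. Capitals mark GCGTG or its reverse CACGC, the core that the Ah receptor binds, and TGACNNNGC or its reverse, the core of the antioxidant element.
Abcg5-Abcg8: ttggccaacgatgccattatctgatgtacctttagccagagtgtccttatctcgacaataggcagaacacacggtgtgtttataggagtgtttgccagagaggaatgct
Abcb11: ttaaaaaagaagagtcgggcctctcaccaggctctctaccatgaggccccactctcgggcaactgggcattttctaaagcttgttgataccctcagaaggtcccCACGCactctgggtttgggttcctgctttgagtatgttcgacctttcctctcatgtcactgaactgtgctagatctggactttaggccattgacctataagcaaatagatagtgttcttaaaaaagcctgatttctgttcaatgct
Abcc2: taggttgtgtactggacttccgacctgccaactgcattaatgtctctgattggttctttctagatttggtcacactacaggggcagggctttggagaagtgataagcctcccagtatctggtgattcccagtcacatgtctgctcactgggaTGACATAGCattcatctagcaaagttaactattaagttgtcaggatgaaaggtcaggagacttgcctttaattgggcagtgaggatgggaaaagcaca
Abca12: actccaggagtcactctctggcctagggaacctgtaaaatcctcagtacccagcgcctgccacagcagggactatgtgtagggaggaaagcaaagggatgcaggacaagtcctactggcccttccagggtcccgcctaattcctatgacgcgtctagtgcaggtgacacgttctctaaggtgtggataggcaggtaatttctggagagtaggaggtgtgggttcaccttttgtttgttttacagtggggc
Abcb1a: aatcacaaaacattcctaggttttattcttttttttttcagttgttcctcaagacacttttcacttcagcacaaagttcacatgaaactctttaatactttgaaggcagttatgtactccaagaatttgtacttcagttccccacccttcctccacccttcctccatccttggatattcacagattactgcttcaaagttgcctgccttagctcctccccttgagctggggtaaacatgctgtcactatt
Abcb1b: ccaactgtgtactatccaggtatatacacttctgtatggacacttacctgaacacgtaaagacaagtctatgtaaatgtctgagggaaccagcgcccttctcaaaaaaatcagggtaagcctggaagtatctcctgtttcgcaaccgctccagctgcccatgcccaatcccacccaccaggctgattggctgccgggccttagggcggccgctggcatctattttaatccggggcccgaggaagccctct
Abcb4: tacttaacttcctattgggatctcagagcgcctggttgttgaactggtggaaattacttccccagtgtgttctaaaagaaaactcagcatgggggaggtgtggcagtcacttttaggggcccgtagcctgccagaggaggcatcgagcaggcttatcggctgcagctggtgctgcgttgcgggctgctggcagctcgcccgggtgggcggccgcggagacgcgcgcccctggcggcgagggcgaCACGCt

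Over the promoter windows of the reference (250 bases before to 50 after each start), GCGTG on either strand was in 32.4% of all 32851 windows and in 15 of the 42 windows of 35 members (35.7%). TGACNNNGC was in 12.4% of all windows and in 7 of the 42 (16.7%), those of Abca8b, Abcb1a, Abcc10, Abcc2 and Abcc4. The direct repeats DR4 and DR1 of nuclear receptors, in their consensus spelling on either strand, were in 0.0152% and 0.0396% of all windows and in 0 of the 42. The median GC content was 52.7% over all windows and 56.7% over those of the members. These are matches of letters, and they were not tied to any measured change.

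The first comparison asked how the members' levels differed between the tissues of vehicle-treated mice, by limma on the authors' log2 ratios. A member was called where the Benjamini-Hochberg adjusted p over all probes was at most 0.05 and the difference at least 1.5-fold. The fit gave each probe 1 spread for all tissues. The median residual SD of all genes was 0.31 in forestomach, 0.16 in lung and 0.15 in liver. For a probe with that pattern, SE and p of differences from forestomach are too small. Of 40 members bright enough in liver or lung, 27 were called, 19 higher in liver and 8 higher in lung, beside 58.5% of all 14259 genes tested. Of all genes 25.4% were higher in liver and 33.1% lower. In forestomach against lung 22 of 34 were called, 13 higher and 9 lower, beside 48.0% of all genes (21.8% higher and 26.2% lower). In liver against forestomach 26 of 38 were called, 18 higher and 8 lower, beside 53.3% (25.6% higher and 27.7% lower). A member that passed the brightness filter in only 1 tissue of a pair was bound to differ, so these shares describe the members and do not set them apart from other genes.

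The counts in each direction moved with a shift of all genes between scalings. With arrays centred on their medians in place of LOWESS, the median of all genes moved to -0.98 for liver minus lung, -1.59 for forestomach minus lung and 0.57 for liver minus forestomach, against -0.10, -0.05 and -0.02 in the authors' ratios. The calls then numbered 20 (10 higher and 10 lower), 26 (1 higher and 25 lower) and 20 (18 higher and 2 lower). Counted against that median, 29 of 40 members lay above it in the authors' ratios and 32 under median centring for liver minus lung, 20 and 21 of 34 for forestomach minus lung, and 24 and 24 of 38 for liver minus forestomach. For forestomach against lung, loess on the scanner signals and normexp each gave 17 (8 higher and 9 lower), and the Cy5 signal alone gave 18 (8 higher and 10 lower). Under these and the other alternatives the share of all genes called was not taken, so such counts do not compare the members with other genes. In whole tissue, a lower level from fewer cells of a type and from less RNA in each cell cannot be told apart.

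By the same limits, 16 of the 37 members tested in both of its comparisons were higher in liver than in both other tissues, beside 19.1% of all such genes. They were 5 of 31 in forestomach (11.8%) and 5 of 33 in lung (20.1%). One of the liver members, Abca17, had another probe that was above background in lung and not in liver. The heatmap of group means sets out those that are named.

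**Figure D1:**
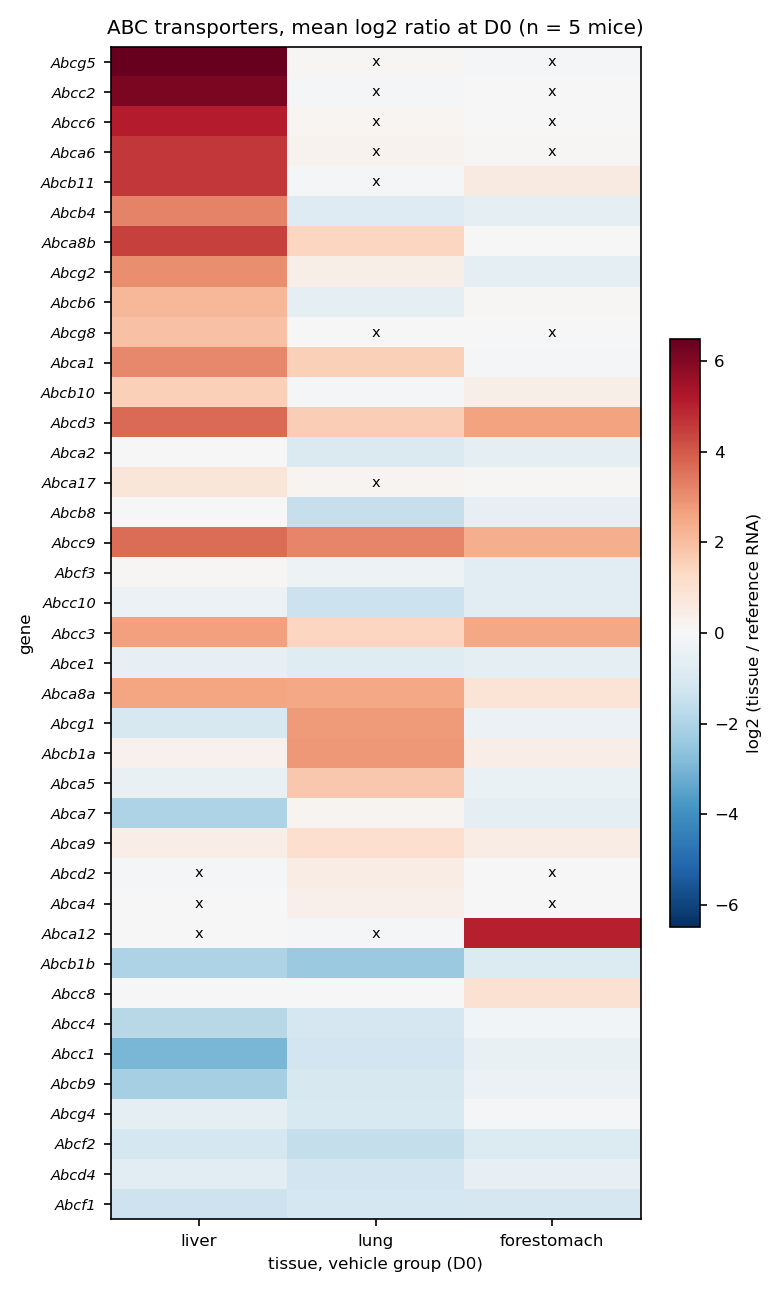
Mean log2 ratio of sample over reference in the 5 vehicle-treated mice of each tissue for 39 members (rows, sorted by the tissue of their highest mean), as colour from blue (below the reference) to red (above it). An x marks the 18 means with a sample signal above background on none of the 5 arrays; Abcg5, Abcc2 and Abcc6 stand out in liver, Abcg1, Abcb1a and Abca5 in lung and Abca12 in forestomach.

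The 5 exporters of the canalicular membrane were all higher in liver than in lung and in forestomach. For 4 of the 5 no lung D0 array was well above background, so that they entered the test through liver and were bound to differ. Of all genes tested in both comparisons, 19.1% were higher in liver than in both. Abcg5, which with Abcg8 forms the pump for plant sterols and cholesterol, had log2 ratios of 6.49, 6.06, 6.87, 6.31 and 6.62 in liver mice 1 to 5, a mean of 6.47 ± 0.31 (SD, n = 5). In lung and forestomach its signal was not well above background on any D0 array. The liver signal was at least 54.1-fold higher than in lung and at least 51.7-fold higher than in forestomach. Such lower bounds were taken on the Cy5 signal, with the dim side set no lower than the dimmest probe above background, and they are open to dye bias.

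Its partner Abcg8 stood closer to the limit of detection. The liver ratios were 2.64, 1.01, 2.10, 1.45 and 2.42, a mean of 1.93 ± 0.68, with a spread between mice far above that of Abcg5. The signal was at least 2.54-fold higher than in lung and at least 2.43-fold higher than in forestomach, and it was not well above background in either. The head-to-head pair shared its highest tissue.

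Of the group, Abcb11, the bile salt export pump, had the narrowest spread of ratios. Its liver ratios were 4.60, 4.57, 4.60, 4.56 and 4.67, a mean of 4.60 ± 0.043, against -0.064, 1.21, -0.11, 0.037 and 1.77 in forestomach, where 2 of the 5 arrays were above background. No D0 array of lung showed it well above background. Liver minus lung was 4.73 for the ratio and 8.76 for the Cy5 signal alone, values given as a description, since lung was at background. The Cy3 signal of this probe stood 5.02 higher on liver arrays than on lung arrays, although both carried the same reference RNA. A Cy3 signal over 1 log2 unit higher on liver arrays was also seen for Abcc6 (3.18), Abcc2 (1.24) and Abcb4 (1.14), beside 6.89% of all genes and a median of 0.41. What raised the reference signal there was not tested, nor was its effect on the spread of the Abcb11 ratio.

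Abcc2, the canalicular exporter of bilirubin and drug conjugates, had liver ratios of 6.23, 6.20, 6.09, 5.82 and 6.25 (6.12 ± 0.18). It was not well above background on the D0 arrays of lung or forestomach, so liver was at least 59.7-fold and at least 57.1-fold higher. Abcb4, the flippase that supplies phosphatidylcholine to bile, was well above background on all lung and liver arrays and on 18 of the 19 forestomach arrays. Its liver ratios of 3.43, 2.98, 3.20, 3.09 and 3.32 lay above all lung ratios (-0.65, -0.75, -0.75, -1.09 and -0.85) and all forestomach ratios (-0.27, -1.45, -0.88, 0.063 and -0.67), 16.2-fold over lung (4.02 (SE 0.22, limma adjusted p 5.6e-22)) and 14.4-fold over forestomach (3.85 (SE 0.22, limma adjusted p 5.4e-21)). Lung and forestomach overlapped, and their difference of 0.17 (SE 0.22, limma adjusted p 0.500) turned to a value below 0 in loess, normexp, median centring and the Cy5 signal alone.

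**Figure D2:**
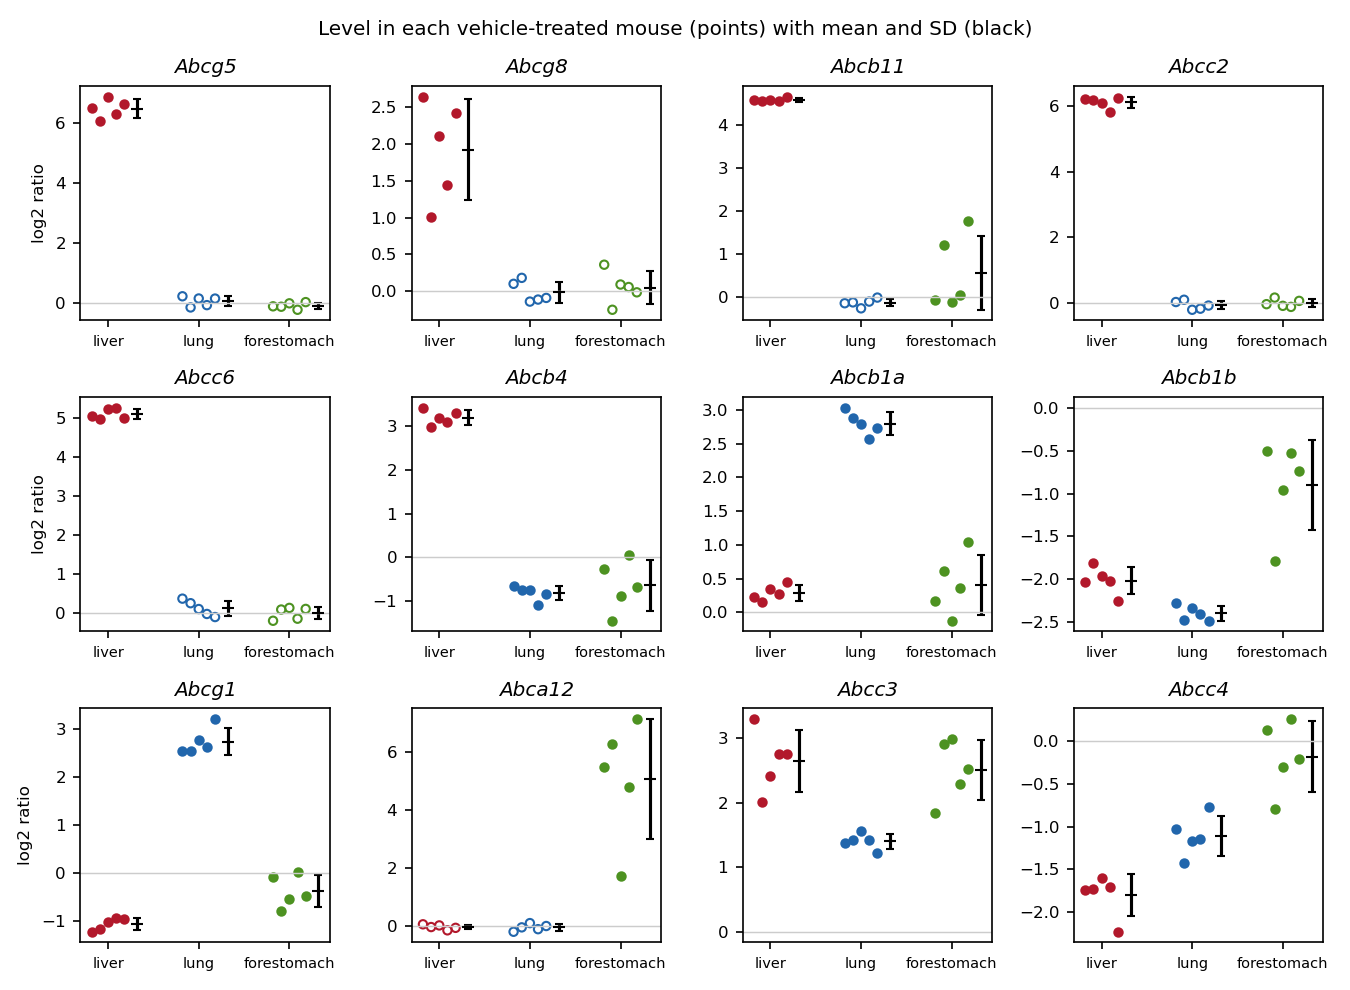
Log2 ratio of sample over reference in each of the 5 vehicle-treated mice (points) of liver, lung and forestomach for 12 members, with mean and SD in black and open points where no array of the group was above background. Liver points lie above both other tissues for Abcg5, Abcg8, Abcb11, Abcc2, Abcc6 and Abcb4, and lung points for Abcb1a and Abcg1, whereas Abcc3 overlaps between liver and forestomach.

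Among the 9 members that export drugs and conjugates, 5 were higher and 3 lower in liver than in lung, and 3 were higher and 3 lower in liver than in forestomach, beside 25.4% and 33.1% of all genes in the former comparison and 25.6% and 27.7% in the latter. Abcc6, an exporter of the liver whose loss leads to mineral deposits in soft tissue, had liver ratios of 5.06, 4.97, 5.24, 5.27 and 5.01 and was not well above background on any D0 array of lung or forestomach. Against that background, liver minus lung was 4.99 for the ratio and 7.05 for the Cy5 signal alone. Abcg2, the breast cancer resistance protein that exports porphyrins and many drugs, had 2.84, 3.06, 2.88, 3.19 and 3.01 in liver, 0.17, 0.24, 0.80, 0.41 and 0.25 in lung and -0.40, -1.11, -0.41, -0.75 and -0.59 in forestomach. No 2 of these groups overlapped, and liver was 6.16-fold above lung (2.62 (SE 0.17, limma adjusted p 2.9e-19)) and 12.5-fold above forestomach (3.65 (SE 0.17, limma adjusted p 1.1e-24)).

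The paralogs Abcb1a and Abcb1b both encode P-glycoprotein in mice, and their probes ranked the tissues differently. Abcb1a was highest in lung, with 3.03, 2.88, 2.79, 2.57 and 2.73 against 0.22, 0.15, 0.35, 0.27 and 0.46 in liver and 0.17, 0.61, -0.13, 0.35 and 1.04 in forestomach, 5.70-fold above liver (liver minus lung -2.51 (SE 0.18, limma adjusted p 2.3e-17)). Forestomach minus lung was -2.39 (SE 0.18, limma adjusted p 4.7e-16), with signal well above background on only 2 of the 5 forestomach arrays. Abcb1b was highest in forestomach, with -0.51, -1.78, -0.96, -0.53 and -0.74 against -2.27, -2.47, -2.33, -2.41 and -2.48 in lung and -2.03, -1.80, -1.96, -2.02 and -2.25 in liver. The lung mice all lay below the forestomach mice, and forestomach was 2.81-fold above lung (1.49 (SE 0.21, limma adjusted p 4.6e-08)), a difference that turned to -0.49 under median centring, which is 1.10 above the median of all genes there. Counting all doses, the Abcb1b probe cleared background on 17 of 19 forestomach arrays, and on 5 of 7 on slide 3. D0 mice 3 and 4 were on that slide, so the fold of Abcb1b over lung may rest in part on dim arrays. Since the genes are close copies, signal shared between the probes cannot be told apart. Together with Abcb4 the genes lie in a row on chromosome 5 (Abcb1a 8567091 to 8748575, Abcb1b 8798147 to 8866314, Abcb4 8893614 to 8959226), and their highest tissues were lung, forestomach and liver.

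Of the other C exporters, Abcc1, a widely used exporter of glutathione conjugates, was lowest in liver. Its ratios were -3.08, -2.65, -3.01, -2.67 and -3.40 in liver, with a signal above background on 2 of the 5 arrays, -1.28, -1.42, -1.003, -1.17 and -1.26 in lung and -0.48, -0.52, -0.59, -0.45 and -0.31 in forestomach. Liver lay -1.73 from lung (SE 0.12, limma adjusted p 2.1e-17) with no overlap. Forestomach minus lung was 0.76 (SE 0.12, limma adjusted p 8.1e-07), but was 0.55 with loess, 0.54 with normexp and 0.50 on the Cy5 signal alone, under the 1.5-fold limit, and turned to -1.41 under median centring. That was 0.18 above the median of all genes, against 0.81 in the authors' ratios.

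Abcc3, the basolateral exporter of bile salts and glucuronides, was lowest in lung. Lung mice had 1.37, 1.42, 1.56, 1.42 and 1.22, liver mice 3.30, 2.00, 2.42, 2.75 and 2.75 and forestomach mice 1.85, 2.90, 2.99, 2.29 and 2.51, and liver and forestomach overlapped. Liver minus lung was 1.25 (SE 0.20, limma adjusted p 2.3e-07) and forestomach minus lung 1.11 (SE 0.20, limma adjusted p 3.5e-06), the latter turning to -1.23 under median centring, still 0.36 above the median of all genes. The call against lung in liver was lost there (0.31, adjusted p 0.717), where liver was 1.29 above the median of all genes, against 1.35 in the authors' ratios.

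Abcc4, an exporter of cyclic nucleotides and conjugates, was higher in forestomach (0.13, -0.79, -0.30, 0.26 and -0.21) than in lung (-1.03, -1.42, -1.17, -1.15 and -0.78), by 0.93 (SE 0.14, limma adjusted p 1.5e-07), a value that turned to -1.05 under median centring, 0.54 above the median of all genes. Liver was lowest (-1.74, -1.73, -1.60, -1.70 and -2.23), without overlap with either tissue. The call between liver and forestomach was lost under median centring (-0.92, adjusted p 0.105), where it was -1.48 relative to the median of all genes. Abcc10, a broad drug exporter, was 1.02 (SE 0.14, limma adjusted p 9.5e-09) higher in liver than in lung, which turned to -0.33 under median centring, 0.65 above the median of all genes.

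Among the 4 sterol and phospholipid exporters, the best known pair differed in the tissue of the highest level. Abca1, which loads apolipoprotein A-I with cholesterol, had 3.01, 3.31, 3.27, 3.15 and 2.93 in liver, 1.31, 1.75, 2.03, 1.35 and 1.28 in lung and -0.025, -0.30, -0.20, -0.041 and -0.031 in forestomach, with no overlap, so liver was 3.01-fold above lung (1.59 (SE 0.15, limma adjusted p 3.7e-13)) and 9.53-fold above forestomach (3.25 (SE 0.15, limma adjusted p 2.1e-24)). Under median centring the difference from lung was 0.24 (adjusted p 0.584) and no longer called, at 1.22 above the median of all genes. Abcg1, which passes cholesterol on to mature HDL and is abundant in macrophages, was highest in lung at 2.56, 2.55, 2.77, 2.62 and 3.22. Liver mice had -1.22, -1.15, -1.02, -0.93 and -0.96 and forestomach mice -0.089, -0.78, -0.53, 0.018 and -0.48. The lung mice all lay above both, liver minus lung was -3.80 (SE 0.17, limma adjusted p 1.3e-25) and forestomach minus lung -3.12 (SE 0.17, limma adjusted p 1.8e-21). Between liver and forestomach the difference was -0.68 (SE 0.17, limma adjusted p 3.6e-04), and it turned to 0.0029 under median centring (-0.56 relative to the median of all genes) and fell under the 1.5-fold limit on the Cy5 signal alone (-0.55), over all dose groups (-0.49) and with forestomach slide 1 alone (-0.20). Macrophage markers were also highest in lung. The mean of 7 such genes was 1.96 to 3.43 there, -0.74 to 0.21 in liver and -0.85 to -0.12 in forestomach, all arrays counted. Their D0 medians put liver above forestomach (-0.32 and -0.62), opposite to Abcg1. Endothelial, alveolar type 2, airway and lymphocyte markers were highest in lung as well. The part of any of these cells in the Abcg1 level was not tested.

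Abca7, a close relative of Abca1 that handles phospholipid, was also highest in lung, with liver minus lung -2.19 (SE 0.14, limma adjusted p 1.1e-19) and forestomach minus lung -0.73 (SE 0.14, limma adjusted p 9.0e-06). Its lung ratios were 0.21, 0.034, 0.16, 0.35 and 0.066, and all lay above those of liver (-1.56, -2.21, -2.09, -1.95 and -2.32) and forestomach (-0.58, -0.40, -0.86, -0.73 and -0.24). Forestomach minus lung was -0.48 over the mean of all dose groups and -0.23 with forestomach slide 1 alone, both under the 1.5-fold limit.

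The 5 genes from Abca5 to Abca9 lie in 1 run on the minus strand of chromosome 11 (109932206 to 110337723) and are close relatives with roles in lipid handling that are less well known. They did not share a highest tissue. Abca6 was at least 12.9-fold higher in liver than in lung, with liver ratios of 4.66, 4.34, 4.77, 4.01 and 5.19 and lung and forestomach not well above background. Abca8b was 8.37-fold higher in liver than in lung (3.07 (SE 0.12, limma adjusted p 4.5e-27)). Its liver ratios of 4.80, 4.05, 4.46, 4.52 and 4.45 lay above those of lung (1.42, 1.72, 1.33, 1.54 and 0.94), and these above those of forestomach (-0.13, 0.28, -0.02, -0.10 and -0.24).

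Abca5 and Abca9, at the other end of the run from Abca8b and in its middle, were highest in lung. Abca5 had 1.71, 1.80, 1.79, 1.72 and 1.69 in lung, all above liver (-0.39, -0.53, -0.42, -0.59 and -0.45) and forestomach (-0.26, -0.56, -0.21, 0.017 and -1.04), with liver minus lung -2.22 (SE 0.14, limma adjusted p 5.6e-19). For Abca9, lung ratios of 1.10, 1.02, 1.11, 0.99 and 1.18 lay above those of liver, and liver minus lung was -0.65 (SE 0.18, limma adjusted p 0.00115). The forestomach ratios of Abca9 (0.14, 0.81, 0.24, 0.087 and 1.16) overlapped those of lung, with a residual SD of 0.38 against 0.26 in lung, and forestomach minus lung was -0.60 (SE 0.18, limma adjusted p 0.00313). That call was lost without mouse 1 (-0.50), without mouse 3 (-0.53), without mouse 4 (-0.52) and with forestomach slide 1 alone (-0.42), and the call of liver minus lung without mouse 1 (-0.58). Abca8a did not differ past the limits between liver (3.39, 2.07, 1.93, 2.27 and 3.16) and lung (2.70, 2.70, 2.57, 2.70 and 1.86), a difference of 0.058 (SE 0.32, limma adjusted p 0.879) that changed sign in 4 other scalings, and was lower in forestomach (-1.64 (SE 0.32, limma adjusted p 1.9e-05)). In forestomach Abca5, Abca8a, Abca8b and Abca9 were each well above background on 2 of the 5 D0 arrays, which limits these differences.

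Abca12, which fills the lamellar granules of keratinocytes with lipid, had forestomach ratios of 5.46, 6.27, 1.71, 4.77 and 7.11, a mean of 5.06 ± 2.07. The forestomach is lined by keratinised epithelium, and the widest gap between mice was at mouse 3, which had 1.71 and also the lowest keratinocyte marker mean of all forestomach arrays, 4.48. Lung and liver D0 arrays showed no signal well above background, and forestomach was at least 27.6-fold and at least 28.6-fold higher. Leaving out 1 forestomach mouse moved the bound against lung from 20.1-fold (without mouse 5) to 49.5-fold (without mouse 3), and that against liver from 20.8-fold to 51.3-fold. Of the other large A members, Abca2, of brain and lysosomal membranes, was 0.98 (SE 0.12, limma adjusted p 1.1e-09) higher in liver than in lung and 0.66 (SE 0.12, limma adjusted p 7.3e-06) higher than in forestomach. On the Cy5 signal alone these were 0.48 and 0.38, neither called, and median centring turned the former to -0.35, 0.63 above the median of all genes. The latter also fell under the limit with normexp (0.57), without mouse 2 (0.55) and without mouse 5 (0.57). Abca4, the retinal flippase, was above background on 4 of 5 lung arrays and on none of liver or forestomach.

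Some B members sit in mitochondria and lysosomes. Abcb6, a porphyrin carrier, was 6.61-fold higher in liver than in lung (2.72 (SE 0.16, limma adjusted p 5.6e-21)), Abcb10, which assists haem synthesis, 3.08-fold (1.62 (SE 0.15, limma adjusted p 1.9e-13)) and the mitochondrial Abcb8 2.85-fold (1.51 (SE 0.17, limma adjusted p 3.9e-11)). All 5 liver mice lay above all 5 lung mice for each of these 3. Under median centring Abcb10 (0.27, adjusted p 0.668) and Abcb8 (0.28, adjusted p 0.651) were no longer called, though each was 1.25 above the median of all genes. Abcb9, a peptide carrier of lysosomes, went the other way: liver ratios of -2.28, -1.92, -2.07, -2.16 and -2.25 lay below lung ratios of -0.91, -0.94, -1.10, -1.11 and -1.07 (-1.11 (SE 0.15, limma adjusted p 5.8e-09)). It was highest in forestomach (-0.64, -0.048, 0.48, -0.87 and -0.79), by 0.65 (SE 0.15, limma adjusted p 1.7e-04) over lung, which fell under the 1.5-fold limit with loess, normexp and the Cy5 signal alone and without mouse 3 (0.42), and turned to -1.65 under median centring. Relative to the median of all genes that was -0.055, on the other side from the 0.71 in the authors' ratios.

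Of the D members, Abcd3, a peroxisomal carrier of fatty acids, was 4.25-fold higher in liver (3.72, 3.70, 3.64, 3.65 and 3.76) than in lung (1.73, 1.56, 1.55, 1.39 and 1.80), by 2.09 (SE 0.10, limma adjusted p 1.5e-24), or 1.37 (adjusted p 0.0568), not called, under median centring, which is 2.34 above the median of all genes. Forestomach lay between (2.50, 2.61, 2.57, 2.70 and 2.75), 1.02 (SE 0.10, limma adjusted p 9.6e-13) above lung, which turned to -1.22 under median centring, 0.37 above that median. Abcd4, of lysosomal cobalamin export, was 0.69 (SE 0.12, limma adjusted p 3.5e-06) higher in forestomach than in lung. That call was lost with loess (0.49), normexp (0.50), the Cy5 signal alone (0.18, adjusted p 0.161) and without mouse 4 (0.56), and the value turned to -1.51 under median centring. Relative to the median of all genes it was then 0.082, against 0.74 in the authors' ratios.

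The sulfonylurea receptors are regulatory subunits of potassium channels and not pumps. Abcc9, the subunit of vascular and smooth muscle channels, had 2.84, 2.79, 3.32, 3.71 and 3.09 in lung, 3.83, 3.34, 3.33, 3.80 and 3.82 in liver and 1.17, 4.73, 1.21, 0.35 and 4.45 in forestomach. The forestomach mice fell into 2 that lay above all others and 3 that lay below, and no comparison was called. With the slide as a random block, liver minus forestomach was called (1.30, adjusted p 0.0199), as it was without mouse 2 (1.90) or mouse 5 (1.71), and without mouse 2 so was forestomach minus lung (-1.44). Abcc8, the subunit of beta cells and neurons, had -0.42, 2.28, 3.16, -0.056 and 0.10 in forestomach, and its call against liver (-1.003 (SE 0.45, limma adjusted p 0.0423)) came with groups that overlapped. It was lost with the mouse as a block (adjusted p 0.0585), the slide as a random block (adjusted p 0.110), no filter on dim probes (adjusted p 0.0799), median centring (-0.72, or -1.28 relative to the median of all genes), without mouse 2 (-0.63) and without mouse 3 (-0.44). Forestomach minus lung for Abcc8 was 0.98 (adjusted p 0.0508), not called, and was called without mouse 1 (1.27), mouse 4 (1.297) or mouse 5 (1.37), over all dose groups (0.72) and with forestomach slide 1 alone (1.10).

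Of the 4 soluble members, Abce1, which splits ribosomes after translation, differed by 0.27 between liver and lung and 0.16 between forestomach and lung, and Abcf1, an initiation factor partner, by -0.22 and 0.045, none called. Abcf2 was 0.66 (SE 0.089, limma adjusted p 1.1e-08) higher in forestomach than in lung, a call lost with loess (0.46), normexp (0.46) and the Cy5 signal alone (0.24) and turned to -1.51 under median centring. Relative to the median of all genes Abcf2 was then at 0.078, against 0.71 in the authors' ratios. Abcf3 was 0.81 (SE 0.092, limma adjusted p 1.0e-10) higher in liver than in forestomach.

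The liver differences were read on the Cy5 signal alone as well, after the Cy3 shift had been seen. Of the 40 members 37 kept their sign, and the difference of 2, Abcb11 and Abcc6, was larger by over 1 log2 unit. Where lung was at background, neither scale measures a fold. For Abcb4, measured in both, it was 4.55 in place of 4.02.

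**Figure D3:**
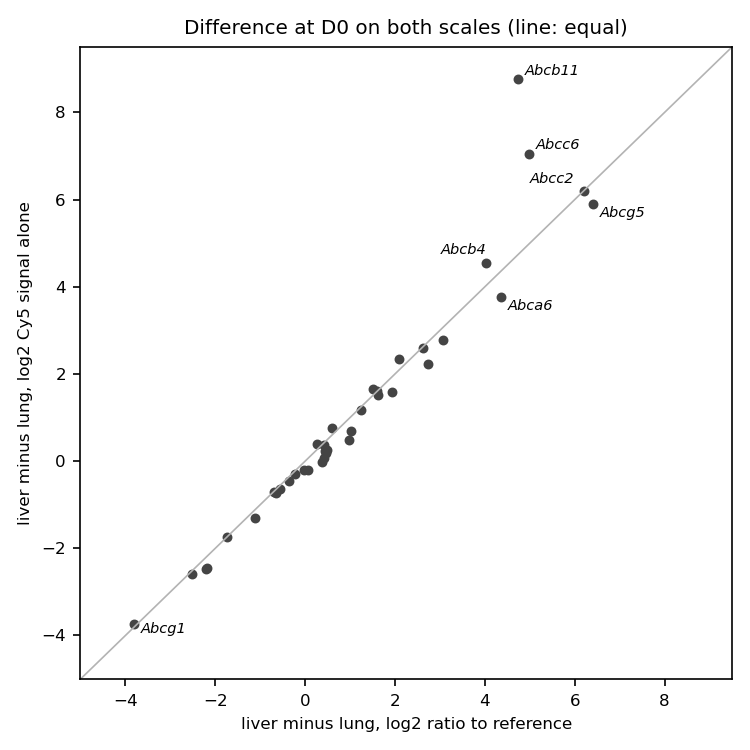
Difference between vehicle-treated liver and lung for 38 members, as log2 ratio to the reference (x axis) and as log2 Cy5 signal alone (y axis), 1 point per gene, with the line where both are equal. Most points lie near the line, and Abcb11 (4.73 against 8.76) and Abcc6 (4.99 against 7.05) lie above it.

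Partners and regulators of the transporters were taken from a list of 20 genes. In liver against lung, 10 of the 19 measured were higher and 5 lower, beside the 58.5% of all genes called (25.4% higher and 33.1% lower). One of the 5, Slc10a1, the bile salt uptake carrier of hepatocytes, was read from a probe with mean ratios of 2.57 in lung, 1.41 in liver and 0.59 in forestomach, which goes against where the gene is known to be used, and whether the probe measures it was not tested. Nr1h4, the bile acid receptor FXR that drives Abcb11, was called higher and was above background on 5 of 5 liver and 2 of 5 lung D0 arrays. Nr1i3 (CAR) and Nr1i2 (PXR), xenobiotic receptors with Abcc2 among their targets, were above background on all 5 liver and 0 of the lung D0 arrays, and Nr1h3, a liver X receptor that drives Abca1, Abcg1, Abcg5 and Abcg8, was 1.35 (SE 0.14, limma adjusted p 2.6e-12) higher. The other liver X receptor, Nr1h2, went the other way, with mean ratios of 0.057 in lung and -0.84 in liver, and Abcg1 was itself lower in liver. Ahr, the receptor for aromatic hydrocarbons, and Nfe2l2 (NRF2) were lower in liver, by -0.90 (SE 0.18, limma adjusted p 1.9e-05) and -1.46 (SE 0.14, limma adjusted p 1.5e-13). In liver against forestomach 14 of 18 were higher and 1 was lower (25.6% and 27.7% of all genes), and in forestomach against lung 5 of 13 were higher and 5 lower (21.8% and 26.2%).

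The second comparison asked whether chrysene changed the members. Aromatic hydrocarbons activate the Ah receptor, to which human ABCG2 responds, and stress through NRF2 is known to raise Abcc2, Abcc3 and Abcc4. None of the members passed the limits against D0: limma called 0 of 37 in lung, 0 of 38 in liver and 0 of 34 in forestomach at D1, D2 and D3 and in the dose trend. The share of all genes called at D3 was 0.0814% in lung (12 genes), 0% in liver and 0.0142% in forestomach (2 genes), and it was 0% at D1 and D2 in each tissue. For the trend it was 0.136% in lung, 0% in liver and 0.0498% in forestomach. The Fs statistic named in the study's methods also called 0 members. The share of all genes called by Fs was not taken, so that count has no share to be set beside.

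With p left unadjusted and at most 0.05, lung D3 had 4 members higher and 2 lower, beside 7.22% and 9.54% of all genes. Forestomach D3 had 3 higher and 0 lower (7.35% and 3.75%), and liver D3 had 0 (3.04% and 1.94%). At D2 the counts were 1 higher in lung (3.18% higher and 2.68% lower), 0 in liver (2.54% higher and 1.67% lower) and 5 higher in forestomach (4.69% higher and 3.44% lower), and at D1 they were 2, 1 and 2, all higher (3.01% higher and 2.06% lower, 2.03% higher and 1.44% lower, and 3.01% higher and 2.07% lower). In the trend there were 4 higher and 2 lower in lung (7.70% and 10.3% of all genes), 2 higher in liver (3.25% and 2.25%) and 2 higher and 1 lower in forestomach (7.20% and 3.71%). The smallest adjusted p of a member at D3 was 0.175 in lung, 1.00 in liver and 0.307 in forestomach.

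**Figure D4:**
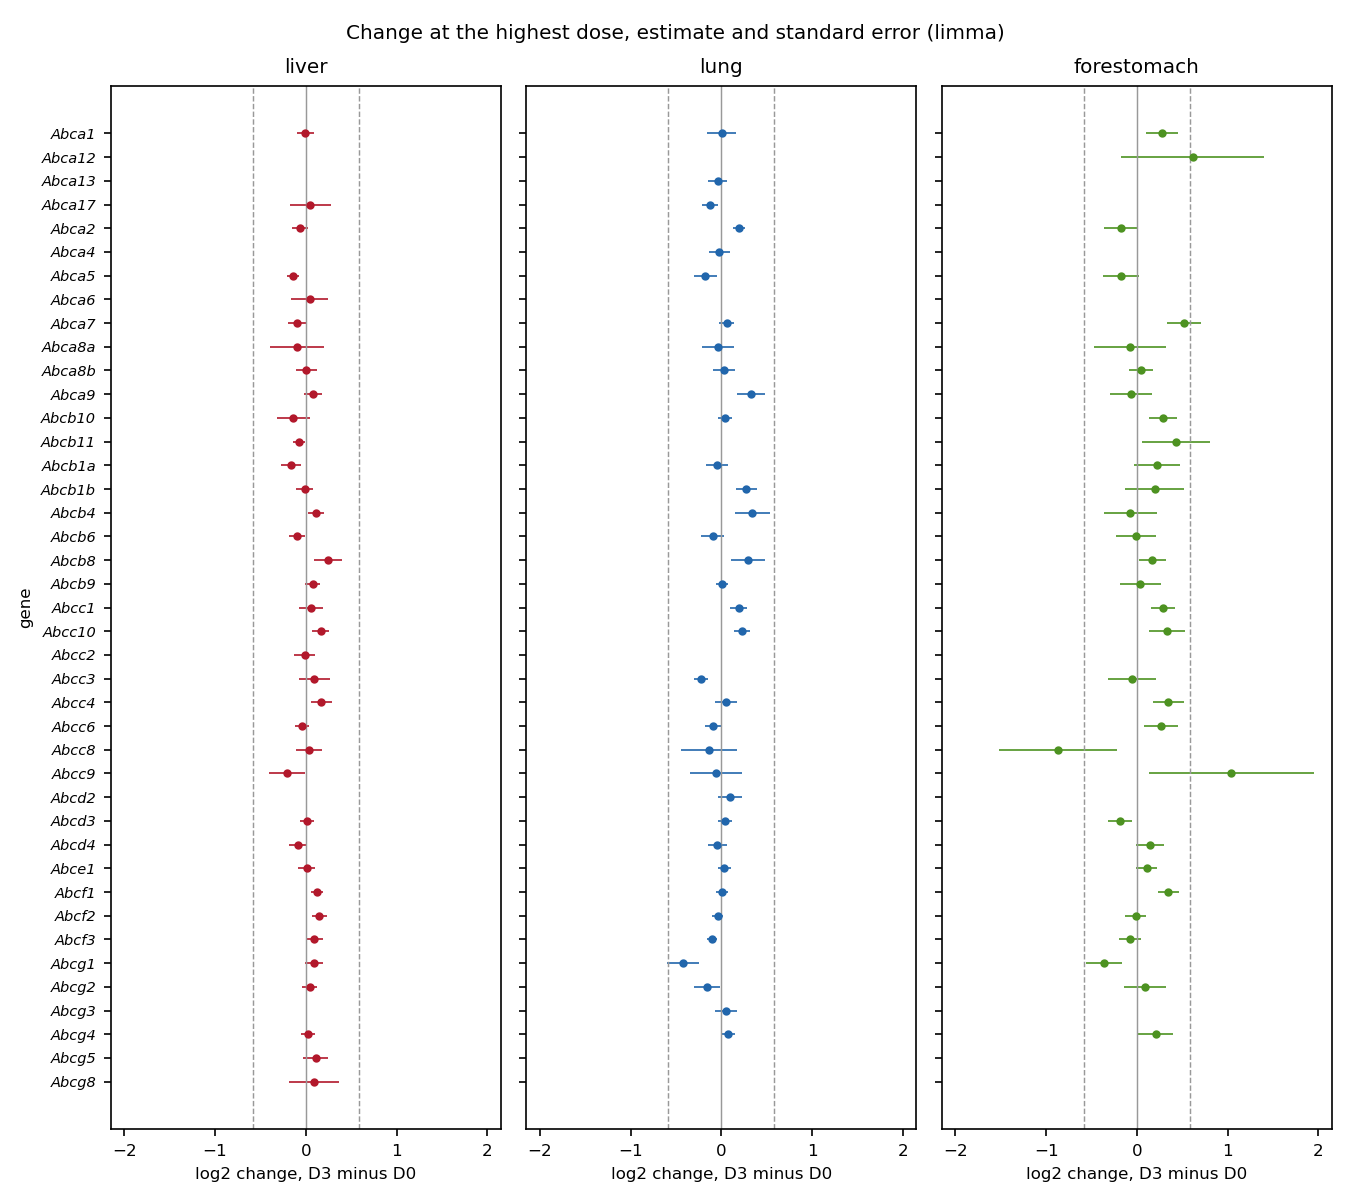
Log2 change from D0 to D3 of the members tested that are named (points, with standard error) in liver, lung and forestomach, with dashed lines at 1.5-fold. No member was called, and forestomach errors were the widest, as for Abcc9 and Abca12.

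In lung the member with the smallest p at D3 was Abca2. Its D0 ratios were -1.02, -0.82, -0.90, -0.97 and -0.95 and its D3 ratios -0.73, -0.72, -0.68, -0.74 and -0.80 in mice 16 to 20. The D0 and D3 groups did not overlap, as was so with D3 higher for 0.841% of all genes, and the change was 0.20 (SE 0.064, limma adjusted p 0.175). Within slides 1, 2 and 3 it was 0.19, 0.25 and 0.16, and without mice 17 and 19 it was 0.19.

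Abcg1 had D0 ratios of 2.56, 2.55, 2.77, 2.62 and 3.22 and D3 ratios of 2.28, 2.00, 2.58, 1.91 and 2.83. The groups overlapped, the change was -0.42 (SE 0.17, limma adjusted p 0.250) and the dose trend, as the fitted D0-to-D3 change, was -0.46 (SE 0.16, limma adjusted p 0.162). The lowest values, 2.00 and 1.91, were those of mice 17 and 19, the mice with skeletal muscle genes in their lung RNA, and without them the change was -0.18. Within slides 1, 2 and 3 the change was -0.56, -0.37 and -0.44, and slide 3 held neither of these mice.

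Abcc3 had D0 ratios of 1.37, 1.42, 1.56, 1.42 and 1.22 and D3 ratios of 1.37, 1.06, 1.15, 1.03 and 1.25. These overlapped, with a change of -0.23 (SE 0.077, limma adjusted p 0.182). It was -0.14 without mice 17 and 19 and -0.34, -0.33 and -0.082 within the slides.

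Abcb1b had D0 ratios of -2.27, -2.47, -2.33, -2.41 and -2.48 and D3 ratios of -2.23, -1.75, -2.44, -2.16 and -2.02, a change of 0.28 (SE 0.11, limma adjusted p 0.258) that was 0.17 without mice 17 and 19. Abca9 changed by 0.33 (SE 0.16, limma adjusted p 0.304) and by 0.089 without these mice, and Abcc10 by 0.23 (SE 0.089, limma adjusted p 0.233) and by 0.13. Abcf3 and Abca5 came next among the lower members, at -0.10 (SE 0.06, limma adjusted p 0.416) and -0.18 (SE 0.13, limma adjusted p 0.518), and Abca5 was 0.10, above 0, without mice 17 and 19.

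Mice 17 and 19 stood apart in several members. Abca12 was at 1.90 and 2.53 in their lungs and at -0.20 to 0.12 in all other lung mice, with keratinocyte markers at 3.87 and 4.33 against -0.69 to -0.43. Abcb4 was 0.16 in both and -1.09 to -0.65 in the others, and Abca5 was 1.10 and 1.19 against 1.69 to 1.93. Abcc9 was also highest in these 2 mice, at 3.94 and 3.76, but close to the others (2.48 to 3.71). The skeletal muscle marker list of mice 17 and 19 had all 10 genes above background, and its part in these levels was not tested.

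**Figure D5:**
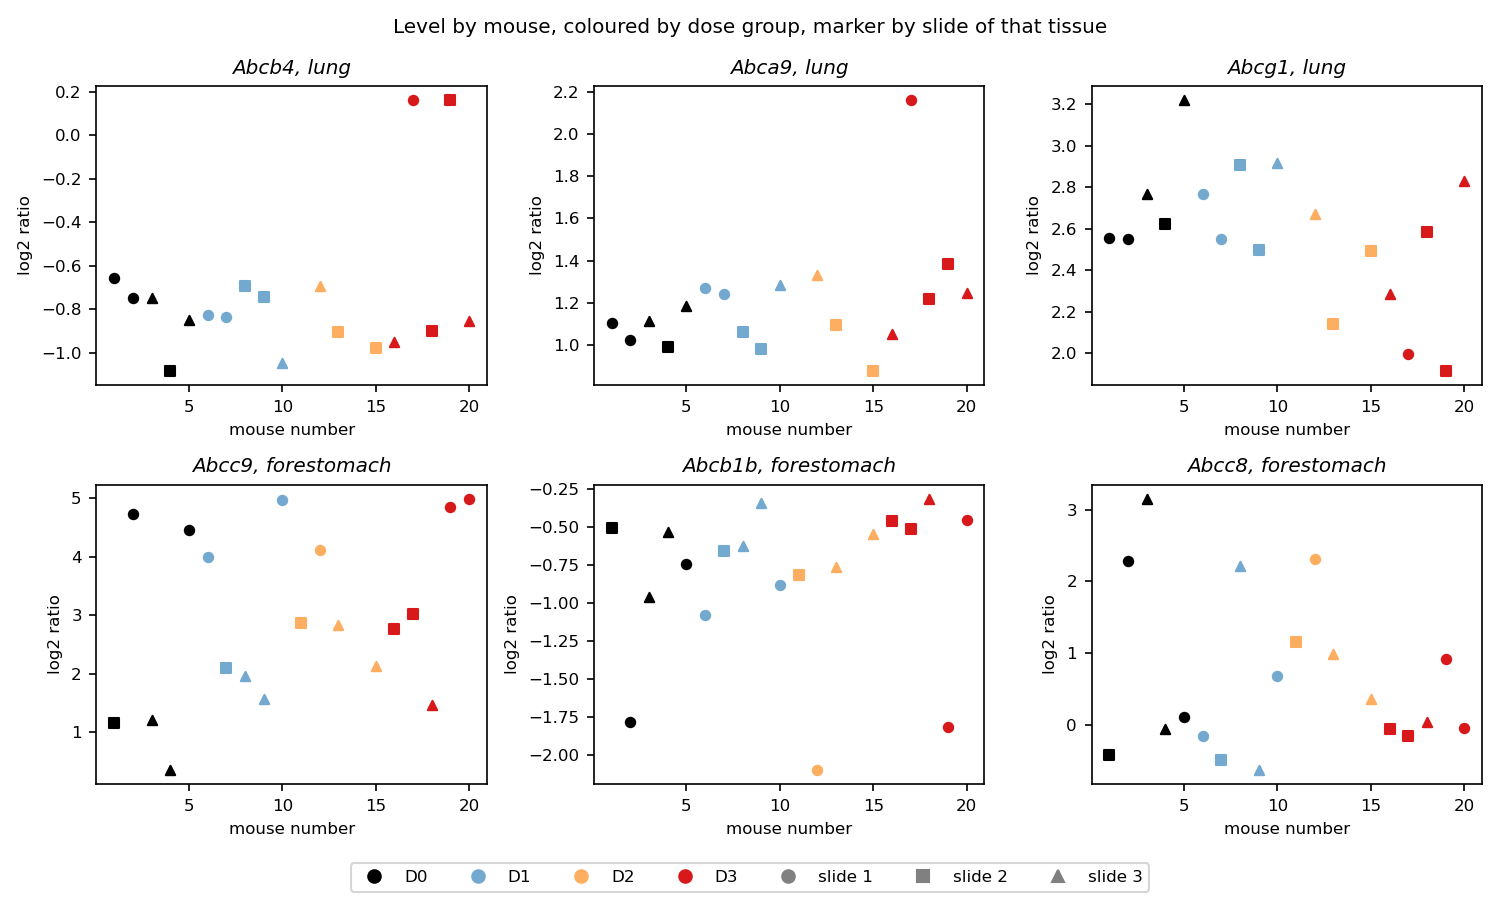
Log2 ratio by mouse number for Abcb4, Abca9 and Abcg1 in lung and Abcc9, Abcb1b and Abcc8 in forestomach, coloured by dose group and with a marker for each slide. Lung mice 17 and 19 stand apart for Abcb4 at 0.16 against -1.09 to -0.65, and Abcc9 in forestomach was 3.99 to 4.99 on slide 1 and 0.35 to 3.02 on slides 2 and 3.

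Of the members of forestomach, Abcf1 had the smallest p at D3. Its D0 ratios were -1.13, -1.08, -0.76, -1.46 and -1.07 and its D3 ratios -0.91, -0.63, -0.68, -0.76 and -0.80, which overlapped at D0 mouse 3, with a change of 0.34 (SE 0.11, limma adjusted p 0.307) and 0.30, 0.35 and 0.43 within slides 1, 2 and 3. Abca7 had -0.58, -0.40, -0.86, -0.73 and -0.24 at D0 and -0.49, -0.16, -0.12, 0.17 and 0.40 at D3, also overlapping, with a change of 0.52 (SE 0.19, limma adjusted p 0.342) and 0.61, 0.25 and 0.67 within the slides. Abcc1 and Abcc4 were next, at 0.28 (SE 0.13, limma adjusted p 0.530) and 0.34 (SE 0.17, limma adjusted p 0.559). Among the lowest were Abcg1 at -0.36 (SE 0.20, limma adjusted p 0.637), Abcd3 at -0.18 (SE 0.13, limma adjusted p 0.752) and Abcc8 at -0.87 (SE 0.65, limma adjusted p 0.758), of which Abcg1 and Abcd3 turned to 0.046 and 0.39 under median centring, where the median of all genes was 0.27.

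The spread between forestomach mice of 1 group was wide, with a median residual SD of 0.31 for the members and 0.31 for all genes, against 0.17 and 0.16 in lung and 0.16 and 0.15 in liver. The members that varied most were Abcc9 (1.56), Abca12 (1.35) and Abcc8 (1.11). Abcc9 followed the slide, with 3.99 to 4.99 on slide 1, 1.17 to 3.02 on slide 2 and 0.35 to 2.84 on slide 3, and so did Abca12 (5.86 to 7.44, 4.84 to 6.12 and 1.71 to 5.09) and Abcb11 (1.00 to 1.77, -0.06 to 0.87 and -0.11 to 0.51). Each slide held all dose groups, and the median share of bright spots fell in the same order, with slides 2 and 3 overlapping. Whether slide or section set these levels was not tested.

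Abcb1b was lowest in forestomach mice 12, 19 and 2, at -2.10, -1.81 and -1.78, against -1.08 to -0.31 in the others, and these mice had the highest glandular stomach means of all, 6.62, 6.70 and 6.53. Abcc8 was highest in mice 3, 12, 2 and 8, at 3.16, 2.32, 2.28 and 2.22, where the glandular means were 5.59, 6.62, 6.53 and 5.26. The other mice with glandular means of 5.01 or more, which were 5, 15, 13, 11, 10 and 19, had Abcc8 at 0.10, 0.35, 0.98, 1.15, 0.68 and 0.92, and mouse 19 also had pancreatic acinar genes at 4.96. The 9 mice with glandular means of 0.30 to 2.34 had Abcc8 at -0.64 to 0.042. The part of these cells in the levels was not tested.

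In liver the changes at D3 were small, and every adjusted p was 1.00. By limma's statistic, the 4 highest were Abcf1 at 0.13, Abcf2 at 0.15, Abcc10 at 0.16 and Abcb8 at 0.25, and the 4 lowest Abca5 at -0.14, Abcb1a at -0.16, Abcb6 at -0.10 and Abcb11 at -0.073. Of the members that NRF2 or the Ah receptor is known to act on, Abcg2 went from 3.00 ± 0.14 (SD, n = 5) to 3.04 ± 0.10 (n = 5), Abcc2 from 6.12 ± 0.18 to 6.11 ± 0.22, Abcc3 from 2.64 ± 0.48 to 2.74 ± 0.22 and Abcc4 from -1.80 ± 0.25 to -1.63 ± 0.21. Their changes were 0.044 (SE 0.083, limma adjusted p 1.00), -0.013 (SE 0.12, limma adjusted p 1.00), 0.10 (SE 0.18, limma adjusted p 1.00) and 0.17 (SE 0.11, limma adjusted p 1.00). The bile exporters Abcb11, Abcb4 and Abcg5 changed by -0.073, 0.11 and 0.11, none past the limits. For Abcb11, whose Cy3 signal was raised on liver arrays, the Cy5 signal alone gave 0.0101.

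Abcg2 in the other tissues went from 0.38 ± 0.25 to 0.22 ± 0.12 in lung and from -0.65 ± 0.29 to -0.56 ± 0.54 in forestomach (SD, n = 5 each). The changes were -0.16 (SE 0.14, limma adjusted p 0.611) and 0.093 (SE 0.23, limma adjusted p 0.947). Abcb1a changed by -0.049 (SE 0.12, limma adjusted p 0.878) in lung, -0.16 (SE 0.11, limma adjusted p 1.00) in liver and 0.22 (SE 0.26, limma adjusted p 0.875) in forestomach. Abca1 changed by 0.0051 (SE 0.16, limma adjusted p 0.992), -0.0042 (SE 0.095, limma adjusted p 1.00) and 0.28 (SE 0.18, limma adjusted p 0.704). These values miss the limits, which does not show that the levels were alike.

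The third comparison asked whether the D3 effect differed between tissues, by the interaction in 1 fit of all 56 arrays. Of the members, 0 of 42 were called for liver against lung (0% of 15150 genes), 0 of 38 for forestomach against lung (0.942% of 15289) and 0 of 39 for liver against forestomach (0.123% of 14657). The smallest limma adjusted p of a member was 0.885, 0.147 and 0.185, and with p unadjusted and at most 0.05 there were 1 higher for liver against lung (2.38% of all genes higher and 2.46% lower), 2 higher and 2 lower for forestomach against lung (9.32% and 5.32%) and 1 lower for liver against forestomach (4.37% and 6.90%). The partners and regulators had 0 called at any dose and in any interaction.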

How the data were processed

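RNA of 3 tissues was hybridised on Agilent 8x60K mouse arrays, and groups and doses were taken from the labels. The deposited scanner files hold the median intensity of each spot in both channels, quantified by Feature Extraction 10.7.3.1, with flags for spots well above background. The authors' own table gives each probe of each array a log2 ratio (Cy5 over Cy3), for which their methods name LOWESS and no background subtraction. These log2 ratios were the values used here. They correlated at 0.977 to 0.998 with loess ratios computed from the scanner intensities (slopes 0.953 to 0.996), and the array medians were -0.05 to -0.02. Scale and direction are thus known, and whether the table was centred further is not stated.

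The 3671 control spots and non-uniform spots (0 to 41 per array) were left out. Accessions of the files were matched to RefSeq on GRCm38.p6, which named 26413 of 55681 probes (47.4%). A probe was tested where Cy5 was well above background on at least 3 arrays of the tissue, or on at least 3 D0 arrays of either tissue compared. limma 3.58.1 in R 4.3.3 (lmFit and eBayes, two-sided) compared each dose with D0 within a tissue, fitted the dose step as a trend, and compared tissues at D0 and their D3 effects over all 56 arrays, with Benjamini-Hochberg adjustment over all probes. The study's methods name MAANOVA, whose Fs statistic was run as an alternative with 100 permutations. The code was tested on simulated data. The number of arrays limits the precision.

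The 48 genes taken do not include 2 others with symbols of this form, and some are not reported by name. Genes named in the text were otherwise those called at a dose, the 4 highest and 4 lowest by limma's statistic at D3 in each tissue, up to 8 members higher and 3 lower than both other tissues, and 15 fixed members. Others are named where a gene group is described, after their values were seen. Members, lists and groups were chosen with earlier results of these data known. Same-numbered samples come from the same mouse. The correlation of their deviations from the group means was 0.04 to 0.32 for liver and lung (18 mice), -0.14 to 0.19 for forestomach and lung (18) and -0.12 to 0.22 for liver and forestomach (19). Alternatives were loess on the scanner signals, median centring, normexp (offset 50), no filter on dim probes, slide as a block, the mean over the probes of a gene, each mouse left out, the array column as a covariate, doses in mg per kg, lung without mice 17 and 19, the mouse as a block and the mean over dose groups. The Cy5 signal alone and forestomach slide 1 alone were added after seeing the data.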

Additional observations from a re-analysis of the deposited data

Results flagged for a closer look

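Single mice stood apart from their group in 13 of the 325 groups of 4 or 5 mice examined (4%), by Dixon's test at the 95% level, which by chance flags about 1 in 20 groups. The 13 groups belong to 10 members. In lung, Abca8a in mouse 5 of D0 was at 1.86, against 2.57 to 2.70 in the rest of the group. Abcc8 in mouse 9 of D1 was at 0.33, against -0.52 to -0.29 in the rest of the group. Abcf3 in mouse 18 of D3 was at -0.24, against -0.56 to -0.48 in the rest of the group. Mice 17 and 19 of lung D3, with skeletal muscle and keratinocyte genes in their RNA, are not in this list, since 2 mice that stand apart together hide each other from the test. In liver, Abcc4 in mouse 5 of D0 was at -2.23, against -1.74 to -1.60 in the rest of the group. Abcc4 in mouse 11 of D2 was at -1.64, against -1.83 to -1.80 in the rest of the group. Abcg8 in mouse 10 of D1 was at 2.54, against 1.45 to 1.74 in the rest of the group. The 3 liver values concern 2 members, the exporter Abcc4 and the sterol pump subunit Abcg8. In forestomach, Abca5 in mouse 11 of D2 was at -0.71, against -0.50 to -0.48 in the rest of the group. Abca8b in mouse 6 of D1 was at -0.50, against -0.10 to 0.04 in the rest of the group. Abca9 in mouse 20 of D3 was at 1.05, against 0.17 to 0.42 in the rest of the group. Abcb1b in mouse 19 of D3 was at -1.81, against -0.51 to -0.31 in the rest of the group. Abcc4 in mouse 7 of D1 was at -0.00043, against 0.30 to 0.32 in the rest of the group. Abcc8 in mouse 19 of D3 was at 0.92, against -0.16 to 0.04 in the rest of the group. Abcf2 in mouse 18 of D3 was at -0.57, against -1.05 to -0.98 in the rest of the group. Mouse 19 of D3, listed for Abcb1b and for Abcc8, had the highest glandular stomach mean (6.70) and the highest pancreatic acinar mean (4.96) of the forestomach arrays. No explanation of these values was tested.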

How the results depend on the processing

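For the 12 counts of called members, all 105 values under alternatives other than leaving out a mouse lay within 1.5 times the count reported. Dose, trend and interaction counts were 0 throughout, and with each mouse left out they ranged from 0 to 0. Leaving out a mouse gave 25 to 28 members for liver against lung, 20 to 23 for forestomach against lung and 25 to 26 for liver against forestomach. With the mouse as a replicate block the counts were 27 (19 higher and 8 lower), 22 (13 and 9) and 25 (18 and 7), with 0 interactions, and the pairing changed no count by over 1.5 times. The block ended 1 call of a named member, that of Abcc8 between liver and forestomach. Of the named members' differences, 42 turned sign under at least 1 alternative other than leaving out a mouse, with 63 such values in all. Of these, 35 came from median centring, which shifts all genes, and 26 of the 35 stayed on the same side of the median of all genes as in the values reported. For the rest the cause was not tested. Loess gave -0.020 for Abca8a (liver minus lung) and -0.0061 for Abcb4 (forestomach minus lung), and normexp gave -0.078 and -0.0017. For forestomach minus lung, loess and normexp gave -0.017 and -0.015 for Abce1 and -0.14 and -0.13 for Abcf1, and loess gave 0.024 for Abcf1 in liver minus forestomach. Median centring gave at D3 0.13 for Abcf3 and 0.050 for Abca5 in lung and 0.046 for Abcg1 and 0.39 for Abcd3 in forestomach. For liver minus lung it gave -0.94 for Abcb1b, -0.29 for Abcc9, -0.47 for Abca8a, -0.35 for Abca2, -0.33 for Abcc10, -0.75 for Abcd4, -0.61 for Abce1, -0.80 for Abcf2 and -0.67 for Abcf3. For forestomach minus lung it gave -0.49 for Abcb1b, -1.41 for Abcc1, -1.23 for Abcc3, -1.05 for Abcc4, -1.89 for Abcb4, -1.65 for Abcb9, -1.22 for Abcd3, -1.42 for Abcb8, -1.62 for Abca2, -1.54 for Abcb10, -1.31 for Abcb6, -1.13 for Abcc10, -0.35 for Abcc8, -1.51 for Abcd4, -2.11 for Abce1, -2.17 for Abcf1 and -1.51 for Abcf2, and for liver minus forestomach 0.0029 for Abcg1, 0.25 for Abca5, 0.76 for Abcd4, 1.25 for Abcf1 and 0.72 for Abcf2. The Cy5 signal alone, added after seeing the data, gave 0.0101 for Abcb11 at D3 in liver, -0.027 for Abcb1b and -0.21 for Abca8a (liver minus lung), -0.22 for Abcb4 and -0.38 for Abcf1 (forestomach minus lung) and 0.068 for Abcd4 and 0.080 for Abcf1 (liver minus forestomach). The mean over the probes of a gene gave 0.19 for Abcf1 (liver minus lung). Leaving out lung mice 17 and 19 gave 0.10 for Abca5. The mean over dose groups gave -0.089 for Abcb4 (forestomach minus lung), 0.056 for Abcc8 (liver minus lung) and 0.033 for Abca5 and 0.033 for Abca9 (liver minus forestomach). Forestomach slide 1 alone, also added later, gave -0.49 for Abcb4, -0.11 for Abca2 and 1.503 for Abcc9 (forestomach minus lung), and -0.12 for Abcc3, -1.02 for Abcc9 and 0.27 for Abca5 (liver minus forestomach). Leaving out a mouse gave ranges across 0 for Abca5 (-0.23 to 0.072), Abca9 (-0.17 to 0.067) and Abcc3 (-0.19 to 0.40) in liver minus forestomach, Abca8a (-0.25 to 0.23) and Abcc8 (-0.18 to 0.14) in liver minus lung, and Abcb4 (-0.071 to 0.39) and Abcf1 (-0.052 to 0.13) in forestomach minus lung. Calls that an alternative ended are given beside each gene described. In addition, median centring ended those of Abca7 (-0.27), Abcb1b (-0.45) and Abcb9 (-0.58) in liver minus forestomach, which relative to the median of all genes were -0.84, -1.01 and -1.14, leaving out mouse 5 that of Abcc4 in liver minus lung (-0.50), and leaving out mouse 1 that of Abcg1 in liver minus forestomach (-0.57). For forestomach minus lung, Abcb6 (0.67) lost its call with loess (0.51), normexp (0.51), the Cy5 signal alone (0.36) and without mouse 2 (0.50). The array column as a covariate was not run in lung, where column and dose cannot be told apart. Dim forestomach arrays limit what could be measured there.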

Other observations

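Probes of 1 gene did not always rank the tissues alike. Abca17, a member of the A family known from the mouse, had a probe above background on 10 lung arrays and no liver array, and another above background on 17 liver arrays and no lung array. The latter was used between tissues and the former for dose in lung. A second probe of Abcf1 had a mean log2 ratio of -0.56 in vehicle-treated liver where the one used had -1.37, and of -1.17 in lung and -0.47 in forestomach, where the one used had -1.14 and -1.10. The values of these genes therefore belong to the probe and may not stand for the gene.

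The residual spread of liver members was widest for Abca8a (0.52) and Abcg8 (0.48), and that of lung members for Abcc8 (0.53) and Abcc9 (0.50), beside medians of 0.16 and 0.17 over the members. Abca8a in liver ran from 2.51 to 3.39 on slide 1, 2.07 to 2.87 on slide 2 and 1.93 to 2.52 on slide 3, and all dose groups were present on every liver slide.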
